A study of Neotoma lepida with 16 samples.

Results

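Heat shock proteins and folding chaperones were followed in the liver of the desert woodrat (Neotoma lepida) across 2 populations and 2 diets. The genes were chosen by symbol alone, as every gene of the array whose name marks it as a heat shock protein (Hsp), a J protein (Dnaja, Dnajb, Dnajc), a subunit of the cytosolic chaperonin (Cct, Tcp1) or of prefoldin (Pfdn), a BAG protein (Bag), or the HSP90 co-chaperones Ahsa and Stip1. Hspg2, whose name only shares the letters, was left out, and so was Hspbap1, which was put in a further list of chaperones and co-chaperones. The array holds 104 probes for 69 such genes, among 41012 probes for 35561 genes or transcripts. Of the 69, 66 were measured well enough to be tested, among 26472 genes tested in all. The 3 that were not tested were Hspa1b_mapped, well above background on at most 3 arrays, and Hsph1 and Dnajc5g, well above background on none.

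Wild-caught woodrats of the Great Basin and Mojave populations were kept for 3 months in individual cages on rabbit chow, and then ate chow with a rising share of creosote bush or of juniper for 5 days. Each of the 4 groups, Great Basin creosote, Great Basin juniper, Mojave creosote and Mojave juniper, held 4 animals. The Mojave creosote animals were all male, and every other group held 2 males and 2 females, so all differences below are adjusted for sex. The animals' ages are not given in the sources used here. Liver RNA of each animal, labelled with Cy5, was hybridised to a rat oligonucleotide array against a Cy3-labelled equimolar pool of all 16 animals. No group ate chow alone, so a gene that was lower on creosote may equally be described as higher on juniper.

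Molecular chaperones bind unfolded or partly folded proteins and help them reach or regain their native shape. HSP70 proteins bind short exposed stretches of a client in a cycle driven by ATP; J proteins deliver clients and start the cycle, and nucleotide exchange factors such as the BAG proteins and the HSP110-like members end it. HSP90 receives clients such as nuclear receptors and kinases from HSP70 through the adaptor Stip1. The chaperonins are barrels that enclose a client, CCT in the cytosol (fed by prefoldin) and Hspd1 with its lid Hspe1 in mitochondria, and small heat shock proteins hold unfolded proteins without ATP. Many of these genes are induced together by heat shock factor during proteotoxic stress, and the chaperones of the endoplasmic reticulum answer to a separate unfolded protein response. In the liver, HSP90 also holds the aryl hydrocarbon and glucocorticoid receptors in a form that can bind their ligands.

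All values are log2 ratios of 1 animal over the pool, after loess normalisation, which centres each array over its probes. A single gene need not average 0 over the 16 animals: the Hspa1a group means ran from -1.30 to -0.42. Values of different genes are not levels that can be compared. Between 46.4% and 76.2% of the probes on an array were well above background in the animal's channel. The 4 arrays of 1 of the 4 slides were the dimmest (46.4% to 52.4%), and each slide carried 1 animal of every group. Each group had its own position, the same on every slide, so differences between diets or populations cannot be told apart from position. Of 15 hepatocyte markers 13 were tested.

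A larger share of the chaperone genes than of all genes was lower on creosote, in both populations. In Great Basin animals 15 of 66 passed an adjusted p of 0.05 (limma, Benjamini-Hochberg over all genes tested), 14 of them lower and 1 higher on creosote, while 4.04% of all genes passed, 1.95% lower and 2.09% higher. In Mojave animals 19 passed, 16 lower and 3 higher, while 9.57% of all genes passed, 5.74% lower and 3.83% higher. Chaperone genes were bright: 57 were well above background on all 16 arrays, and these 57 held all of the calls, 15 in Great Basin and 19 in Mojave, against 6.49% and 15.8% of all genes detected on every array, 3.17% and 9.58% in the lower direction. The median difference, creosote minus juniper, was -0.06 in Great Basin and -0.16 in Mojave over the 66 genes, and -0.01 and 0.00 over all genes. With median centring in place of loess, 38 and 54 of the 66 lay below 0, and the median over them was -0.03 in Great Basin and -0.53 in Mojave, against 0.01 and -0.04 over all genes. The creosote and juniper values did not overlap, with creosote lower, for 15 members in Great Basin (5.44% of all genes) and for 24 in Mojave (9.39% of all genes), and with creosote higher for 3 (5.05%) and 4 (7.35%). For each animal the median over the 66 genes lay between -0.18 and -0.06 on creosote and between -0.04 and 0.06 on juniper.

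In bulk liver RNA, fewer cells of a type and less RNA per cell cannot be told apart. Most markers of hepatocytes were higher on creosote. In Great Basin 6 of 13 passed and in Mojave 7 of 13, all higher, against 2.09% and 3.83% of all genes. None was called lower, but 1 and 2 of the 13 lay below 0 (lowest -0.63 and -0.61). The mean over the 13 ran from 0.42 to 0.80 in creosote animals and from -0.18 to 0.05 in juniper animals. The part of this shift in the chaperone differences was not tested. Among 8 Kupffer cell markers only Cd14 passed (-0.54, Great Basin), among 9 stellate cell markers only Rgs5 (1.23, Great Basin), and among 6 endothelial markers only Xlkd1 (0.56 in both). None of 3 cholangiocyte, 4 lymphocyte, 3 erythroid and 4 neutrophil markers passed in either diet comparison.

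The Great Basin count was sensitive to single animals and to the scaling. It was 6 to 9 without animal 1 or 4 of Great Basin creosote, or without any 1 Great Basin juniper animal (2.38% to 4.28% of all genes passed). It was 13 to 15 when any 1 of the other 10 animals was omitted (3.31% to 4.7%). It was 5 with the deposited processed signals (2.68% of all genes passed), 4 with median centring (4.37%), 5 without the dimmest slide (1.51%) and 1 in males alone, 2 against 2 animals (0.578%). Every lower call in these 4 settings was also a call here. With median centring 4 of 66 members were called, all lower, while 4.37% of all genes were called, 63.5% of those higher. The Mojave count was 13 to 21 without any 1 animal (5.99% to 10.4% of all genes passed). It was 32 with median centring, 30 of them lower (18% of all genes passed), 11 from the Cy5 channel alone (4.1%), 12 without the dimmest slide (6.55%) and 10 in males alone (4.05%). Median centring also moved the split of all calls, from 51.7% to 63.5% higher in Great Basin and from 40.1% to 13.7% higher in Mojave.

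**Figure D1:**
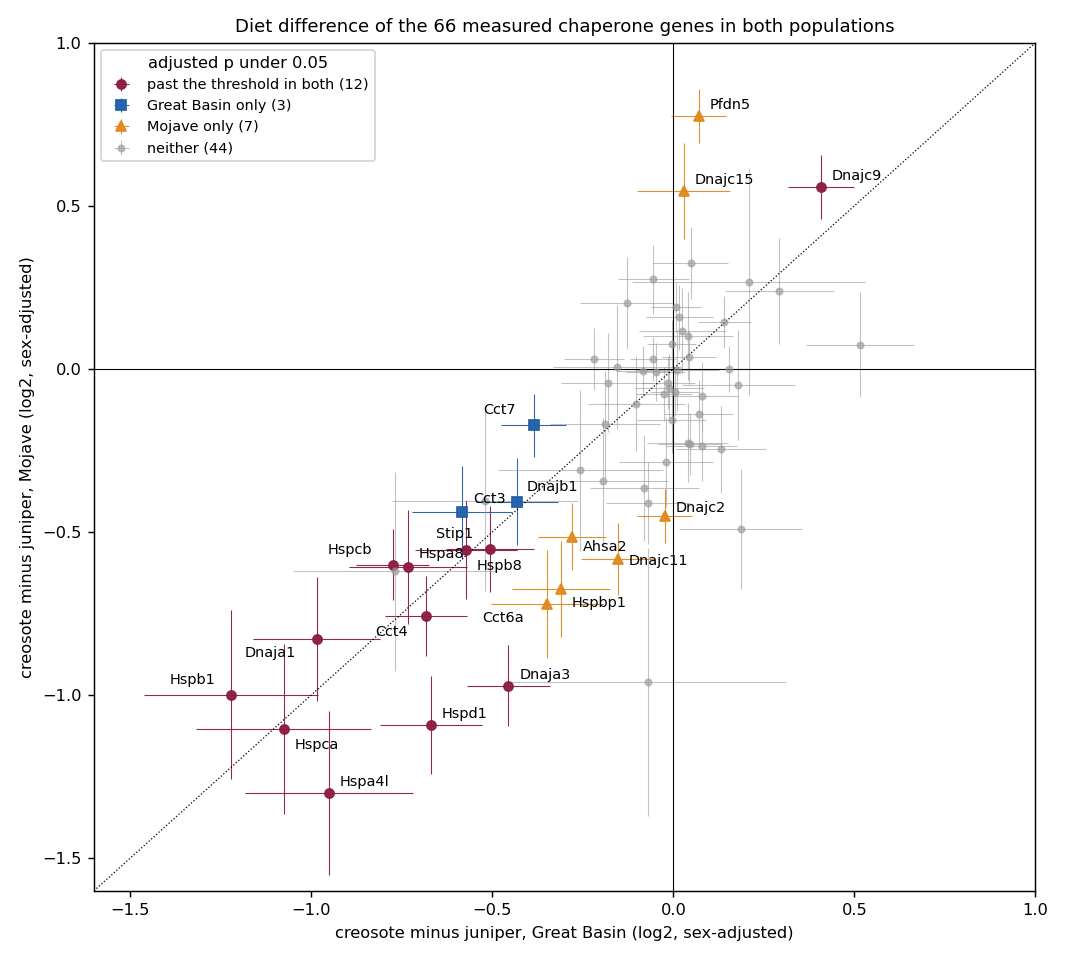
Diet difference (creosote minus juniper, log2, with SE) of the 66 measured chaperone genes in Great Basin animals (x axis) and Mojave animals (y axis); symbols mark where the adjusted p was under 0.05, and the dotted line marks equal differences. The 12 genes past the threshold in both populations lie on 1 side of 0 in both, 11 lower and Dnajc9 higher, and Pfdn5 and Dnajc15 lie near 0 in Great Basin and above 0.5 in Mojave.

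Of the members past the threshold, 11 were lower on creosote in both populations: the HSP90 genes Hspca and Hspcb with Stip1, the HSP70 genes Hspa8 and Hspa4l, the J proteins Dnaja1 and Dnaja3, the small heat shock proteins Hspb1 and Hspb8, the mitochondrial chaperonin Hspd1 and the chaperonin subunit Cct4. Dnajc9 was higher on creosote in both. A further 3 were lower in Great Basin alone (Cct3, Cct7, Dnajb1), 5 were lower in Mojave alone (Ahsa2, Hspbp1, Dnajc2, Dnajc11, Cct6a) and 2 were higher in Mojave alone (Dnajc15, Pfdn5). For none of these was the difference between the populations itself past the threshold. Across 12 other settings of the analysis, the Great Basin call was never lost for Hspcb, and it was lost in 1 for Cct4 and Dnaja1 (males alone), in 2 for Hspca, in 3 for Hspb1, in 4 for Hspa8 and Hspd1, in 5 for Hspa4l, Hspb8 and Stip1, in 6 for Cct3, in 8 for Dnaja3 and in 9 for Cct7 and Dnajb1. The Mojave call was never lost for Cct4, Dnaja3, Hspa4l, Hspd1 and Pfdn5, and it was lost in 1 for Ahsa2, Dnajc2, Dnajc11 and Hspcb, in 2 for Dnajc9, Hspbp1 and Hspca, in 3 for Cct6a, Dnaja1, Hspb1 and Hspb8, in 4 for Stip1, in 6 for Hspa8 and in 7 for Dnajc15. Dnajc9 in Great Basin lost its call in 3 and changed direction in 1. Calls that were kept could still move by over 1.5 times in size. Median centring gave larger Mojave differences for Cct4, Cct6a, Dnaja1, Dnajc2, Dnajc11, Hspa8, Hspb1, Hspb8, Hspcb and Stip1 (-1.5 to -0.68). The mean of probes gave smaller ones for Hspa4l (-0.81), Hspca (-0.68), Hspd1 (-0.66) and Dnajc9 (0.29) in Mojave and for Hspcb in Great Basin (-0.48). The processed signals gave -1.16 for Ahsa2 in Mojave, and without Great Basin creosote 4 Hspb8 gave -0.37 in Great Basin.

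**Figure D2:**
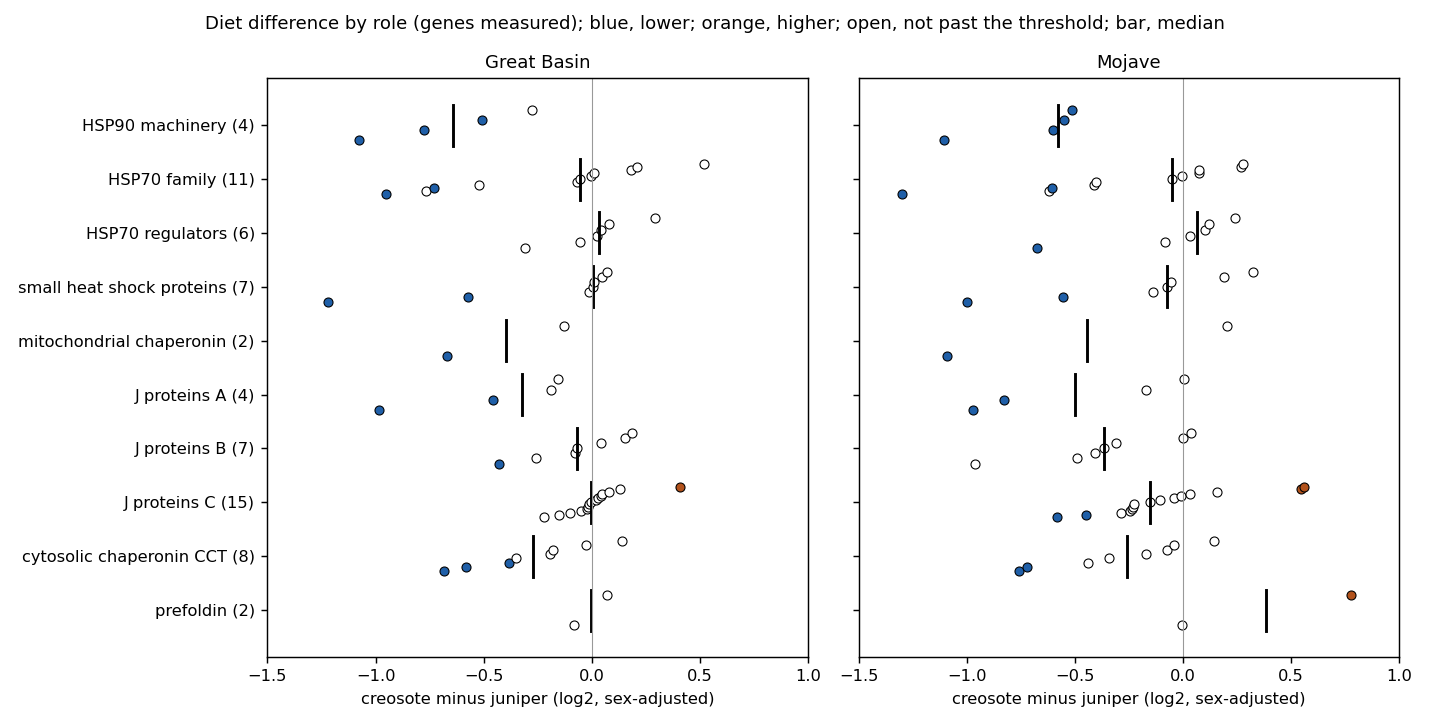
Diet difference (creosote minus juniper, log2) of each measured member by role, in Great Basin (left) and Mojave (right); filled points passed the test, open points did not, and the bar is the median of the role. The HSP90 group, Hspca, Hspcb, Stip1 and Ahsa2, lies below 0 in both populations (-1.08 to -0.28 and -1.10 to -0.51), while most J proteins of class C lie near 0. Each gene is shown by its brightest probe.

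The HSP90 group was the one in which all measured genes were lower on creosote in Mojave (4 of 4 past the threshold) and nearly all in Great Basin (3 of 4). Hspca, the stress-inducible cytosolic HSP90 now named Hsp90aa1, measured -1.31, -1.44, -1.03 and -1.54 in Great Basin creosote animals 1 to 4 and -0.20, 0.04, -0.60 and -0.26 in Great Basin juniper animals. It measured -0.27, -1.04, -1.82 and -1.23 in Mojave creosote animals and -0.30, 0.01, 0.55 and 0.55 in Mojave juniper animals. The diets did not overlap in Great Basin, whereas in Mojave creosote animal 1 lay among the juniper animals. The difference was -1.08 ± 0.24 (SE; 2.11-fold lower, adjusted p = 0.0196) in Great Basin, with -1.48 to -0.71 within slides. It was -1.10 ± 0.26 (2.15-fold lower, adjusted p = 0.0145) in Mojave, with -2.37 to 0.03 within slides and 3 of 4 slides lower. Leaving out Great Basin creosote 4, juniper 2 or juniper 4 ended the Great Basin call (-1.04 to -0.93, adjusted p = 0.0540 to 0.0684).

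Hspcb, the constitutive cytosolic HSP90 now named Hsp90ab1, measured -0.79, -0.67, -0.43 and -0.98 in Great Basin creosote animals and 0.02, 0.03, 0.13 and 0.03 in Great Basin juniper animals. The Mojave values were -0.65, -0.46, -0.44 and -0.46 on creosote and -0.03, 0.08, 0.29 and 0.15 on juniper. All 8 creosote animals lay below all 8 juniper animals. The difference was -0.77 ± 0.10 (1.71-fold lower, adjusted p = 0.00049; -1.0 to -0.47 within slides) in Great Basin and -0.60 ± 0.11 (1.52-fold lower, adjusted p = 0.00292; -0.72 to -0.55 within slides) in Mojave. Among the 15 Great Basin calls it was the only one kept in all 12 other settings and without any 1 animal. A further Hspcb probe of similar brightness gave -0.19 in Great Basin and 0.03 in Mojave, and the mean of both probes was -0.29 in Mojave (adjusted p = 0.216).

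Stip1, the adaptor that joins HSP70 to HSP90, differed by -0.51 ± 0.12 (adjusted p = 0.0278) in Great Basin and by -0.55 ± 0.13 (adjusted p = 0.0150) in Mojave. Its diets did not overlap in either population: -0.88 to -0.41 against -0.27 to 0.11 in Great Basin, and -0.71 to -0.41 against -0.24 to 0.18 in Mojave. Leaving out Mojave juniper 2 ended the Mojave call (-0.45, adjusted p = 0.0856), and leaving out animal 1 or 4 of Great Basin creosote, or animal 1, 2 or 3 of Great Basin juniper, ended the other (-0.53 to -0.38, adjusted p = 0.0538 to 0.0988). Ahsa2, a relative of the HSP90 ATPase activator Ahsa1, was lower in Mojave (-0.51 ± 0.10, adjusted p = 0.00513) and gave -0.28 ± 0.09 in Great Basin (adjusted p = 0.120). Its diets did not overlap in either population. Ahsa1 itself and prefoldin subunit Pfdn2 were not analysed here.

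**Figure D3:**
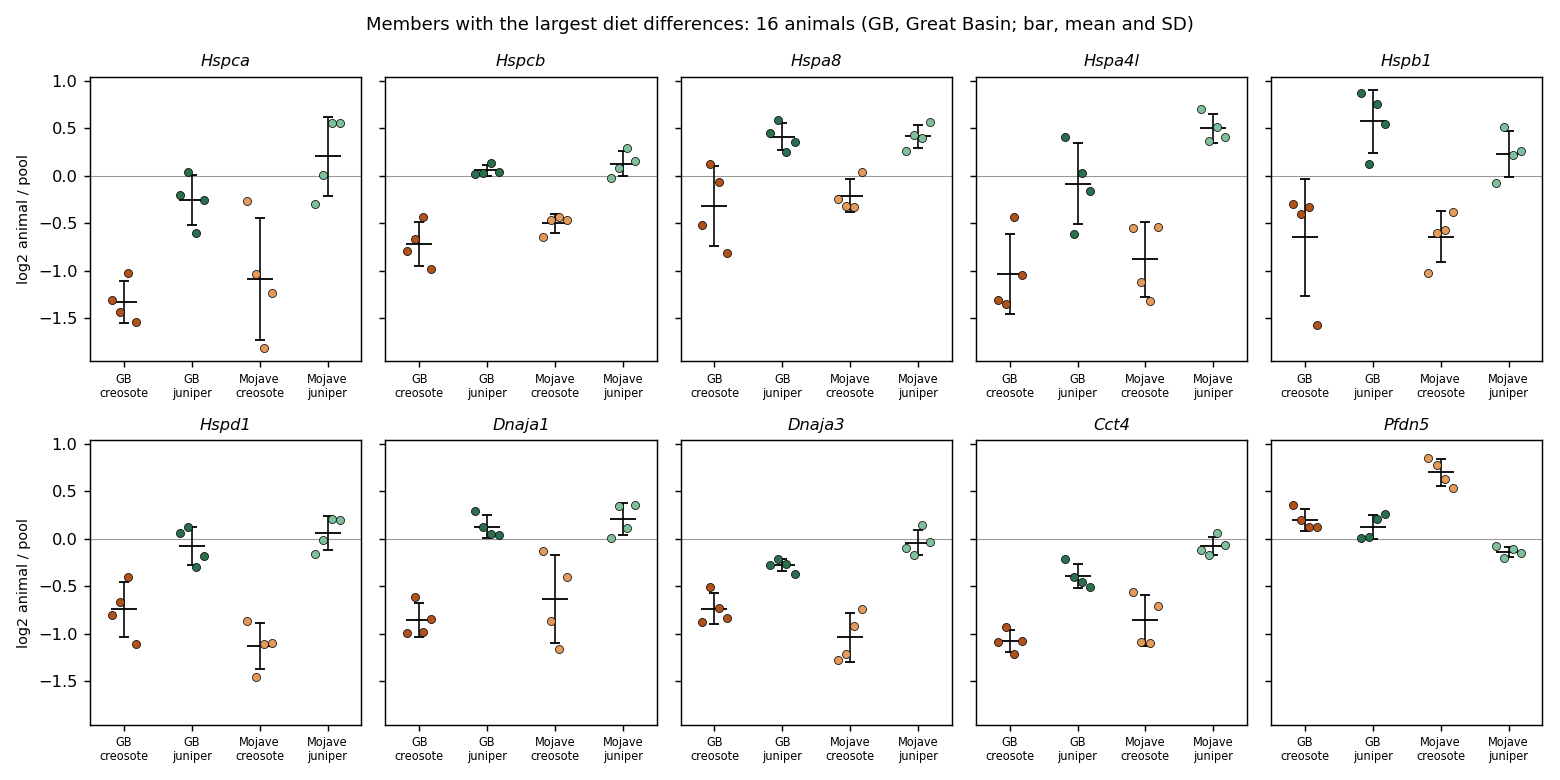
Log2 ratio of each of the 16 animals over the pool for the 10 members with the largest called diet differences, by group (4 animals each; bars are mean and SD). For Hspcb, Hspa8, Hspb1, Hspd1, Dnaja1, Dnaja3 and Cct4 the creosote animals of each population lie below its juniper animals, and for Pfdn5 the 4 Mojave creosote animals lie above all others.

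In the HSP70 family 2 of 11 genes were lower in each population, Hspa8 and Hspa4l in both. Hspa8, the constitutive cytosolic HSP70 that serves routine folding, measured -0.52, 0.12, -0.07 and -0.81 in Great Basin creosote animals and 0.45, 0.59, 0.25 and 0.35 in juniper animals. Mojave animals measured -0.25, -0.32, -0.33 and 0.04 on creosote and 0.26, 0.43, 0.40 and 0.56 on juniper. The diets did not overlap in either population, and the Great Basin creosote animals spread more widely (SD 0.42) than the other groups (SD 0.12 to 0.17). The difference was -0.73 ± 0.16 (1.66-fold lower, adjusted p = 0.0183; -1.26 to -0.42 within slides) in Great Basin and -0.61 ± 0.18 (1.52-fold lower, adjusted p = 0.0399; -0.75 to -0.51 within slides) in Mojave. The Great Basin call of Hspa8 ended when Great Basin creosote 1, juniper 1 or juniper 2 was omitted (adjusted p = 0.0559 to 0.0680). Its Mojave call ended when any 1 of 9 animals was omitted, namely Great Basin juniper 1 or 4, Mojave creosote 1, 2 or 3, or a Mojave juniper animal (-0.67 to -0.57, adjusted p = 0.0522 to 0.119).

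Hspa4l, an HSP110-like member that exchanges nucleotide on HSP70, had the largest Mojave difference among members past the threshold. It measured -0.56, -1.12, -1.32 and -0.54 in Mojave creosote animals and 0.70, 0.37, 0.51 and 0.40 in Mojave juniper animals. In Great Basin it measured -1.31, -1.35, -0.43 and -1.05 on creosote and 0.41, -0.62, 0.03 and -0.16 on juniper. The diets were apart in Mojave and overlapped in Great Basin, where creosote 3 lay above juniper 2. The difference was -1.30 ± 0.25 (2.46-fold lower, adjusted p = 0.00432; -1.83 to -0.94 within slides) in Mojave and -0.95 ± 0.23 (1.93-fold lower, adjusted p = 0.0307; -1.46 to -0.27 within slides) in Great Basin. In Great Basin the call ended on omitting animal 1, 2 or 4 of the creosote group or animal 1, 3 or 4 of the juniper group (-0.95 to -0.79, adjusted p = 0.0630 to 0.112).

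The other HSP70 genes did not pass, although the calls of Hspa9a and Hspa14 depended on the setting. Hspa1a, the classical heat-inducible HSP70, measured -1.57 to -1.07 in Great Basin creosote animals and -1.46 to -1.19 in Mojave creosote animals. Juniper animals were more variable, 0.57, -0.53, -0.73 and -1.16 in Great Basin and -0.82, -0.80, -0.62 and 0.57 in Mojave, with 1 high animal in each population. Its differences were -0.77 ± 0.28 (adjusted p = 0.160) and -0.62 ± 0.31 (adjusted p = 0.252). Hspa9a, the mitochondrial HSP70 now named Hspa9, gave -0.07 ± 0.12 in Great Basin and -0.41 ± 0.12 (adjusted p = 0.0506) in Mojave, where the diets did not overlap. In Mojave it passed with median centring (-0.64, adjusted p = 0.00624), without the sex term (-0.49, adjusted p = 0.0138), among genes detected on all 16 arrays (adjusted p = 0.0392) and without Great Basin juniper 1 or 3 or Mojave creosote 3. Hspa5, the HSP70 of the endoplasmic reticulum known as BiP, gave 0.18 ± 0.16 (adjusted p = 0.624) and -0.05 ± 0.17 (adjusted p = 0.915), with overlapping diets in both populations. Hspa14, a ribosome-associated HSP70, gave 0.52 ± 0.15 (adjusted p = 0.0674) in Great Basin, the largest difference above 0 in that comparison, and 0.07 ± 0.16 in Mojave. In Great Basin Hspa14 passed with the slide as a block (adjusted p = 0.0438), with the replicate number as a block (adjusted p = 0.0414) and from the Cy5 channel alone (0.54, adjusted p = 0.0443). It also passed there without Great Basin creosote 2 (0.68, adjusted p = 0.00662) or Mojave creosote 1 (adjusted p = 0.0328). Hspa4 gave -0.52 and -0.40, and Hspa2, Hspa12a, Hspa12b and Hspa1l_mapped lay between -0.06 and 0.27 in both populations.

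Among 6 regulators of the HSP70 cycle only Hspbp1, a nucleotide exchange factor, passed, in Mojave (-0.67 ± 0.15, adjusted p = 0.00907). Its creosote animals measured -1.05, -0.42, -0.26 and -0.48 and its juniper animals 0.02 to 0.09. In Great Basin the diets did not overlap either, but the difference of -0.31 ± 0.14 did not pass (adjusted p = 0.254). The exchange factors Bag1 (0.04 and 0.10) and Bag3 (-0.06 and 0.03) did not pass in either population, and neither did Bag4, Bag5 and Hspa5bp1. Bag3, which is induced by heat shock factor, was dim, well above background on 10 arrays. The background offset draws values of dim probes towards 0, so these values cannot show whether Bag3 was unchanged.

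Of 7 small heat shock proteins, Hspb1 and Hspb8 were lower in both populations and the other 5 passed in neither. Hspb1, which binds unfolding proteins and actin, had the largest Great Basin difference of all members past the threshold. It measured -0.30, -0.40, -0.33 and -1.57 in Great Basin creosote animals and 0.87, 0.12, 0.76 and 0.54 in juniper animals. In Mojave it measured -1.02, -0.61, -0.57 and -0.38 on creosote and -0.07, 0.52, 0.22 and 0.26 on juniper. Great Basin creosote 4 stood far below its group, and the diets did not overlap in either population. The difference was -1.22 ± 0.24 (2.33-fold lower, adjusted p = 0.00897; -2.44 to -0.52 within slides) in Great Basin and -1.0 ± 0.26 (2.0-fold lower, adjusted p = 0.0239; -1.12 to -0.64 within slides) in Mojave. The Great Basin call held without any 1 animal (-1.39 to -0.92), and the Mojave call ended on omitting Mojave creosote 1 or juniper 2 (-0.92 to -0.87, adjusted p = 0.0637 to 0.0965).

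Hspb8, which works with Bag3 in clearing misfolded proteins, measured -1.15 to -0.35 in Great Basin creosote animals and -0.19 to 0.11 in juniper animals. The Mojave values were -0.57 to -0.55 on creosote and -0.19 to 0.19 on juniper. The differences were -0.57 ± 0.14 (adjusted p = 0.0315) and -0.56 ± 0.15 (adjusted p = 0.0307). Leaving out any 1 of Great Basin juniper 1, 2 or 4 (adjusted p = 0.0765 to 0.106) ended the first call, and leaving out any 1 Mojave creosote animal or Mojave juniper 2, 3 or 4 (adjusted p = 0.0522 to 0.0855) ended the second. Hspb2, Hspb3, Hspb6 and Hspb7, best known from muscle, and Hspb9, from testis, lay between -0.14 and 0.32 in both populations. Hspb3 passed in Mojave without the sex term (0.32, adjusted p = 0.0420) and without Mojave creosote 2 (0.39, adjusted p = 0.0452).

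The 2 subunits of the mitochondrial chaperonin differed in their calls. Hspd1, the barrel subunit HSP60, measured -0.81, -0.66, -0.40 and -1.10 in Great Basin creosote animals and 0.06, 0.13, -0.29 and -0.18 in juniper animals. Mojave animals measured -0.87, -1.45, -1.11 and -1.10 on creosote and -0.16, -0.01, 0.22 and 0.20 on juniper. All creosote animals were below all juniper animals, and the Mojave difference of -1.09 ± 0.15 (2.13-fold lower, adjusted p = 0.00059; -1.44 to -0.71 within slides) held in all 12 other settings. The Great Basin difference was -0.67 ± 0.14 (1.59-fold lower, adjusted p = 0.0132; -1.16 to -0.21 within slides). Hspe1, the lid subunit HSP10, gave -0.13 ± 0.13 (adjusted p = 0.684) in Great Basin and 0.20 ± 0.14 (adjusted p = 0.459) in Mojave, with overlapping diets. The 2 genes lie head to head and share a promoter region in mammals; their difference from each other was not tested.

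Among the 4 J proteins of class A, Dnaja1 and Dnaja3 were lower in both populations and Dnaja2 and Dnaja4 did not pass (-0.19 to 0.01). Dnaja1, a heat-inducible partner of cytosolic HSP70, measured -0.99, -0.61, -0.98 and -0.85 in Great Basin creosote animals and 0.30, 0.12, 0.05 and 0.05 in juniper animals. In Mojave it measured -0.13, -0.86, -1.16 and -0.40 on creosote and 0.01, 0.35, 0.12 and 0.35 on juniper. The diets did not overlap in either population, though Mojave creosote 1 came within 0.14 of the juniper animal on its own slide. The difference was -0.99 ± 0.18 (1.98-fold lower, adjusted p = 0.00434; -1.15 to -0.73 within slides) in Great Basin and -0.83 ± 0.19 (1.78-fold lower, adjusted p = 0.0121; -1.28 to -0.14 within slides) in Mojave. Omitting Mojave juniper 2 ended the Mojave call (-0.75, adjusted p = 0.0599).

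Dnaja3, the J protein of the mitochondrial matrix that partners Hspa9, measured -0.87, -0.51, -0.73 and -0.83 in Great Basin creosote animals and -0.27, -0.21, -0.26 and -0.37 in juniper animals. The Mojave values were -1.28, -1.22, -0.92 and -0.74 on creosote and -0.10, -0.17, 0.15 and -0.03 on juniper. All creosote animals lay below all juniper animals. The Mojave difference was -0.97 ± 0.12 (1.96-fold lower, adjusted p = 0.000338; -1.18 to -0.70 within slides) and the Great Basin difference -0.46 ± 0.11 (1.37-fold lower, adjusted p = 0.0361; -0.61 to -0.29 within slides). In Great Basin the call ended on omitting animal 1, 3 or 4 of the creosote group or any juniper animal (-0.48 to -0.41, adjusted p = 0.0702 to 0.115). The difference between the populations in the diet effect was -0.52 ± 0.17 (adjusted p = 0.202).

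Of 7 J proteins of class B only Dnajb1, the main heat-inducible partner of HSP70, passed, in Great Basin (-0.43 ± 0.11, adjusted p = 0.0491). Its creosote animals measured -0.56 to -0.02 and its juniper animals 0.02 to 0.43. In Mojave, where the spot of juniper 2 was left out as an outlier, creosote animals measured -0.44 to -0.31 and juniper animals -0.03 to 0.32, a difference of -0.41 ± 0.13 (adjusted p = 0.0718). The Mojave difference passed without the sex term (-0.48, adjusted p = 0.0179), with median centring (-0.90, adjusted p = 0.00847) and without Great Basin creosote 3 or 4 or juniper 1 (adjusted p = 0.0403 to 0.0429). A further bright Dnajb1 probe gave -0.71 ± 0.15 in Great Basin and -0.17 ± 0.17 in Mojave. The Great Basin call of Dnajb1 ended on omitting any 1 of 14 animals, every animal but Great Basin creosote 2 and 3 (-0.48 to -0.30, adjusted p = 0.0508 to 0.153). The J proteins of the endoplasmic reticulum, Dnajb9 and Dnajb11, did not pass. Dnajb9, a target of the unfolded protein response, measured -1.99 to -0.60 in Mojave creosote animals and -0.18 to 0.24 in Mojave juniper animals, while in Great Basin it ran from -1.32 to 0.50 on creosote and from -1.22 to 0.60 on juniper. Its differences were -0.96 ± 0.41 (adjusted p = 0.176) and -0.07 ± 0.38. Dnajb11 gave -0.37 ± 0.16 (adjusted p = 0.195) in Mojave and -0.08 ± 0.15 in Great Basin, and Dnajb6 gave -0.49 ± 0.18 (adjusted p = 0.117) and 0.19 ± 0.17. In Mojave the diets of Dnajb6, Dnajb9 and Dnajb11 did not overlap, and all of these passed there with median centring (-1.46 to -0.83, adjusted p = 0.0031 to 0.0263). A further, dimmer Dnajb6 probe gave -0.55 in Mojave, and the mean of both probes passed (-0.52, adjusted p = 0.00388). Dnajb6 also passed in Mojave without the sex term (adjusted p = 0.0422) and without Great Basin juniper 2 (adjusted p = 0.0426).

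The 15 J proteins of class C, which share the J domain and little else, went both ways. Dnajc9, known as a histone chaperone, was higher on creosote in both populations. It measured 0.65, 0.26, 0.30 and 0.30 against -0.06 to 0.00 in Great Basin, and 0.59, 0.40, 0.68 and 0.38 against -0.14 to 0.04 in Mojave. The differences were 0.41 ± 0.09 (1.33-fold higher, adjusted p = 0.0187; 0.30 to 0.70 within slides) and 0.56 ± 0.10 (1.47-fold higher, adjusted p = 0.00237; 0.46 to 0.73 within slides). From the Cy5 channel alone, with quantile normalisation in place of loess, Dnajc9 was lower on creosote in Great Basin (-0.62 ± 0.14, adjusted p = 0.0239). In Mojave the same setting gave 0.24 ± 0.15 (adjusted p = 0.498). Omitting Great Basin creosote 1 or juniper 2, 3 or 4 also ended the Great Basin call of Dnajc9 (0.31 to 0.41, adjusted p of at most 0.0549).

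Dnajc2, a ribosome-associated J protein, and Dnajc11, of the mitochondrial membranes, were lower in Mojave only. Dnajc2 measured -0.45 to -0.24 on creosote and -0.05 to 0.24 on juniper in Mojave (-0.45 ± 0.08, adjusted p = 0.0033), and gave -0.02 ± 0.08 in Great Basin. Dnajc11 measured -0.78 to -0.34 on creosote and -0.03 to 0.27 on juniper in Mojave (-0.58 ± 0.11, adjusted p = 0.00405), and gave -0.15 ± 0.10 in Great Basin. Dnajc15, of the mitochondrial inner membrane, was higher in Mojave: 0.27, 0.32 and 0.48 on creosote, with animal 4 left out as an outlier spot, against -0.16 to -0.05 on juniper (0.54 ± 0.15, adjusted p = 0.0314). It ended on omitting Mojave creosote 2 or 3 or juniper 2, 3 or 4 (0.48 to 0.59, adjusted p = 0.0582 to 0.0904). It was also lost in 7 of the 12 other settings (0.05 to 0.58, adjusted p = 0.0510 to 0.890), and the lowest value came with median centring. Dnajc3, the endoplasmic reticulum J protein and kinase inhibitor P58, gave 0.00 ± 0.10 and -0.16 ± 0.10, and with median centring -0.56 in Mojave (adjusted p = 0.00778). The other 10 members of class C lay between -0.29 and 0.16 and did not pass, among them Dnajc18, which was not well above background on any Great Basin creosote array.

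**Figure D4:**
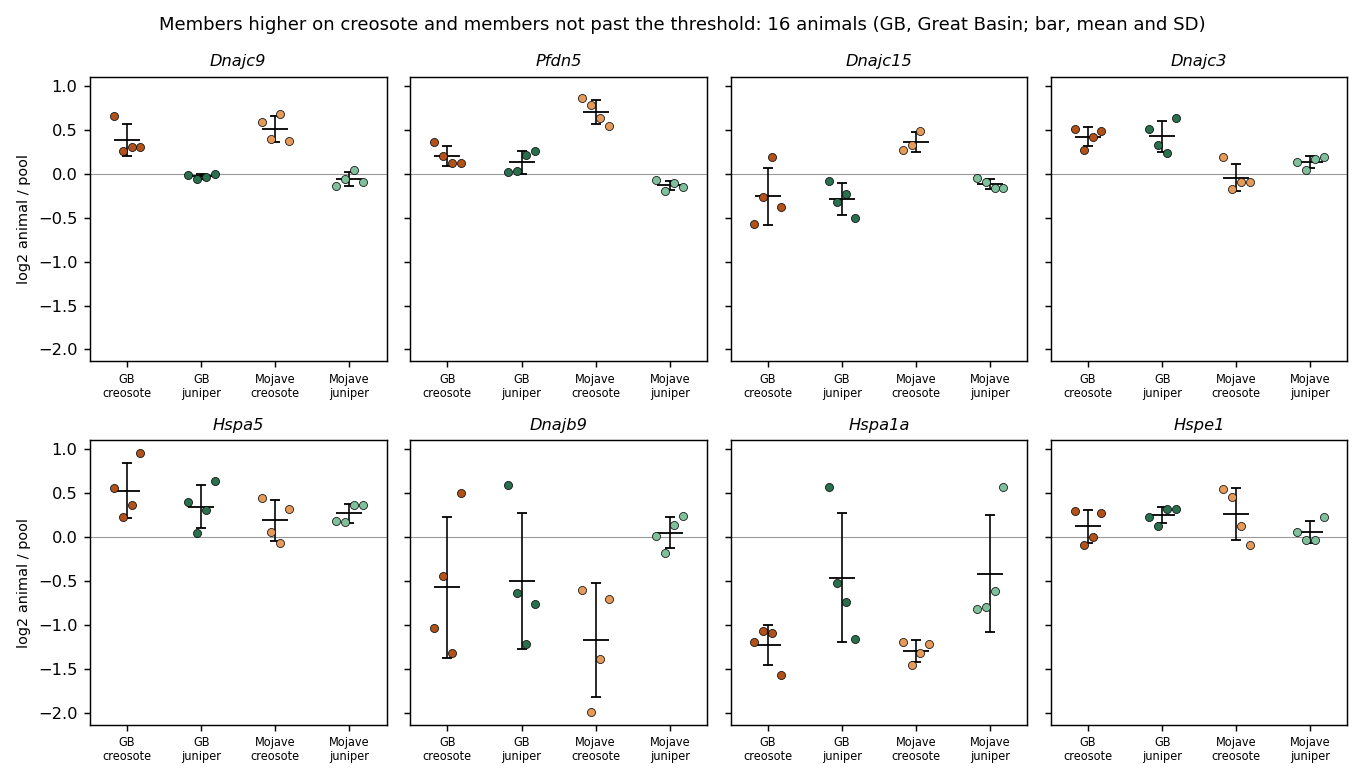
Log2 ratio of each of the 16 animals over the pool for the members higher on creosote and for 5 members that did not pass the diet test, by group (4 animals each, 3 for Dnajc15 in Mojave creosote; bars are mean and SD). Dnajc9 is higher on creosote in both populations and Pfdn5 in Mojave, the Mojave animals measure -0.18 to 0.19 and the Great Basin animals 0.24 to 0.63 for Dnajc3, which did not pass between populations, and Hspa1a has 1 high juniper animal in each population.

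CCT is a ring of 8 different subunits that folds actin and tubulin, and all 8 were measured. Cct4 was lower in both populations, Cct3 and Cct7 in Great Basin and Cct6a in Mojave, and 7 of the 8 lay below 0 in each population, with medians of -0.27 and -0.26. Cct4 measured -1.08, -0.93, -1.22 and -1.07 in Great Basin creosote animals and -0.21, -0.40, -0.45 and -0.51 in juniper animals. Mojave animals measured -0.55, -1.08, -1.09 and -0.71 on creosote and -0.11, -0.16, 0.06 and -0.07 on juniper. All creosote animals were below all juniper animals. The difference was -0.68 ± 0.11 (1.6-fold lower, adjusted p = 0.00273; -0.86 to -0.53 within slides) in Great Basin and -0.76 ± 0.12 (1.69-fold lower, adjusted p = 0.00155; -1.15 to -0.44 within slides) in Mojave, and neither call was lost without any 1 animal.

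Cct3 gave -0.58 ± 0.14 (adjusted p = 0.0371) in Great Basin and -0.44 ± 0.14 (adjusted p = 0.0774) in Mojave. In Mojave it passed with the mean of its probes (-0.66, adjusted p = 0.00142), median centring (-0.90, adjusted p = 0.00253), the slide as a block (adjusted p = 0.0183), without the sex term (adjusted p = 0.0258) and without the dimmest slide (adjusted p = 0.0207). Outlier spots of Cct3 were left out in Great Basin creosote 2, Great Basin juniper 4 and Mojave juniper 4, so only 2 slides held both Great Basin diets. Its Great Basin call ended on omitting any 1 of 8 animals, namely creosote 1 or 3 and each juniper animal of Great Basin, Mojave creosote 4 and Mojave juniper 1 (-0.61 to -0.46, adjusted p = 0.0506 to 0.198). Cct7 gave -0.39 ± 0.09 (adjusted p = 0.0279) and -0.17 ± 0.10 (adjusted p = 0.334), without the outlier spots of Great Basin creosote 2 and Mojave juniper 2, and its Great Basin call ended on omitting animal 1 or 4 of the creosote group or any juniper animal there (-0.41 to -0.32, adjusted p = 0.0551 to 0.115). Cct6a gave -0.72 ± 0.17 (adjusted p = 0.0127) in Mojave, where it measured -0.82 to -0.08 on creosote and 0.00 to 0.33 on juniper, and -0.35 ± 0.15 (adjusted p = 0.257) in Great Basin. Tcp1, the first subunit, gave -0.18 ± 0.13 and -0.04 ± 0.15, Cct5 gave -0.20 and -0.34, Cct8 -0.03 and -0.08, and Cct2 0.14 in both populations. Cct2 and Cct8 were dim, well above background on 9 and 12 arrays, and values of dim probes are drawn towards 0 by the background offset. In Mojave Cct2 passed with the deposited processed signals (0.92, adjusted p = 0.0385) and with median centring (0.30, adjusted p = 0.0232).

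Prefoldin hands unfolded actin and tubulin to CCT, and 2 of its subunits, Pfdn1 and Pfdn5, were measured. Pfdn5 measured 0.86, 0.78, 0.64 and 0.54 in Mojave creosote animals and -0.08, -0.20, -0.11 and -0.15 in Mojave juniper animals. In Great Basin it measured 0.36, 0.20, 0.12 and 0.12 on creosote and 0.02, 0.03, 0.21 and 0.26 on juniper. The 4 Mojave creosote animals stood above the other 12 animals, and the Great Basin diets overlapped. The Mojave difference was 0.78 ± 0.08 (1.71-fold higher, adjusted p = 9.48e-05; 0.69 to 0.98 within slides), the smallest adjusted p of any member, and the call was kept in all 12 other settings and without any 1 animal. With median centring the value was 0.36 (adjusted p = 0.0436). The Great Basin difference was 0.07 ± 0.08 (adjusted p = 0.708). Pfdn1 gave -0.08 and -0.01.

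Several members were read by more than 1 probe. For 8 of the 15 genes called in Great Basin there were 12 further probes, all 12 on the same side of 0 and 8 of them with an unadjusted p under 0.05. For 7 of the 19 genes called in Mojave there were 11 further probes, 8 on the same side and 5 with an unadjusted p under 0.05, and none passed that threshold on the other side. The 3 further Hspca probes gave -1.17, -0.84 and -0.32 in Great Basin and -1.45, -0.27 and 0.06 in Mojave, the last value of each series from a dim probe. Hspd1 and Hspa8 had 3 kept probes each. A further bright probe gave -0.67 and -0.68 for Hspd1, and one gave -0.86 and -0.79 for Hspa8. The remaining probe of each is not described here. The Mojave call of Hspa8 was lost with the mean of its kept probes. Cct3 gave -0.66 in Great Basin and -0.91 in Mojave by its further probe. Hspa4l had 1 further, dim probe at -0.07 and -0.32. Probes of 1 gene thus shared a direction in most cases and disagreed in size, and the sequences of rat probes were not compared with woodrat transcripts here.

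**Figure D5:**
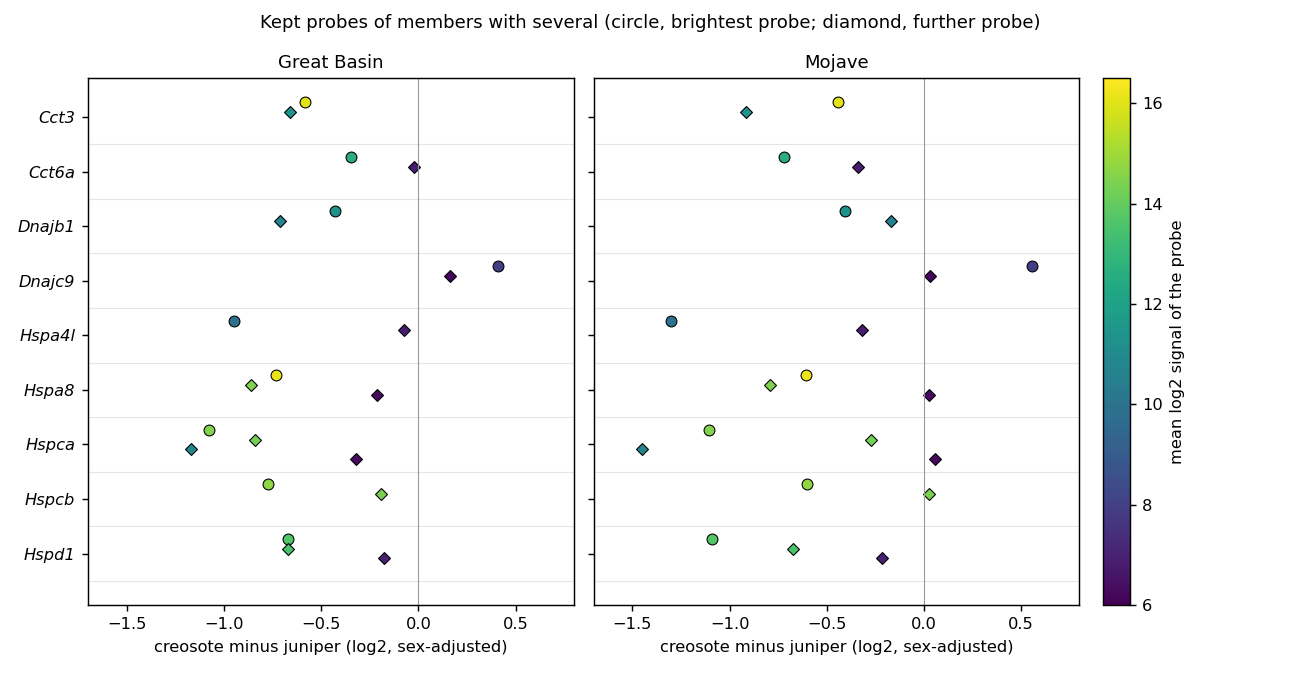
Diet difference (creosote minus juniper, log2) of every kept probe of the 9 called members with several probes, in Great Basin (left) and Mojave (right); circles are the brightest probe, which stands for the gene, diamonds are further probes, and colour is the probe's mean log2 signal. The dim, dark-coloured probes lie closer to 0 than the brightest probe of their gene, and the further Hspcb probe lies at -0.19 and 0.03 although it is bright.

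No member passed the test between the populations on either diet, and none passed the test of a diet effect that differed between them (limma). On creosote 0 of 66 passed, and 0.0718% of all genes passed. On juniper 0 passed, and 0.0113% of all genes passed. For the interaction of population and diet 0 passed, and no gene of the array passed. The SE of the interaction was 0.17 in the median member, against 0.12 and 0.13 for the diet differences, which limits the difference between populations that 4 animals a group can show.

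Pfdn5 came closest. It was higher in Mojave than in Great Basin animals on creosote (0.44 ± 0.08, adjusted p = 0.0653) and lower on juniper (-0.26 ± 0.08, adjusted p = 0.324), and its interaction was 0.71 ± 0.11 (adjusted p = 0.0553; 0.60 to 0.84 within slides). The groups did not overlap in either comparison. The interaction passed without the sex term (0.77 ± 0.12, adjusted p = 0.0190), with the mean of kept probes, for which only the other genes' values change (adjusted p = 0.0438), and without Great Basin creosote 4, Mojave creosote 3 or Mojave creosote 4 (0.70 to 0.76, adjusted p = 0.0259 to 0.0394). On creosote it passed without the sex term (0.50 ± 0.08, adjusted p = 0.0144) and without the same 3 animals. On creosote Dnajc15 gave 0.68 ± 0.15 (adjusted p = 0.0773), which passed without Great Basin creosote 3 (0.78, adjusted p = 0.0432) or 4 (0.64, adjusted p = 0.0473). Dnajc3 gave -0.44 ± 0.10 on creosote (adjusted p = 0.0885) and -0.29 ± 0.10 on juniper (adjusted p = 0.401), measuring 0.27 to 0.51 and 0.24 to 0.63 in the Great Basin groups and -0.18 to 0.18 and 0.04 to 0.19 in the Mojave groups, with no overlap on either diet. With the median centring, 13 members passed on creosote, all lower in Mojave, while 11.9% of all genes passed, 5.93% of those higher. For the interaction 11 passed, all more negative in Mojave, while 9.19% of all genes passed, 5.18% of those higher.

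Chaperones and helpers outside these families were read from 2 further lists. Of 31 other chaperones and co-chaperones of the cytosol and mitochondria, 1 passed in Great Basin, the HSP90 co-chaperone Chordc1 (-0.55 ± 0.14, adjusted p = 0.0396). In Mojave 6 passed, 4 lower and 2 higher. The lower ones were the heat shock transcription factor Hsf2 (-0.75), the myosin and HSP90 co-chaperone Unc45a (-0.62), the tetratricopeptide protein Ttc1 (-0.51) and the HSP90-bound phosphatase Ppp5c (-0.48). The higher ones were Hsbp1 (0.71), which binds heat shock factor, and the crystallin Cryaa (0.31). Their medians were -0.01 and -0.06. The shares called were 3.23% in Great Basin, below the 4.04% of all genes, and 19.4% in Mojave, against 9.57%.

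Of 26 chaperones, folding enzymes and stress response genes of the endoplasmic reticulum, 1 passed in Great Basin, the BiP exchange factor Sil1 (0.51 ± 0.12, adjusted p = 0.0278). In Mojave the protein disulphide isomerase P4hb (0.47) and the prolyl isomerase Fkbp2 (0.52) were higher, and the lectin chaperone Canx was lower (-0.82 ± 0.17, adjusted p = 0.00595). The shares called, 3.85% and 11.5%, were near those of all genes (4.04% and 9.57%). The medians were 0.06 and 0.08, and 18 of the 26 lay above 0 in each population. Of the 66 members 42 and 46 lay below 0, and of all 26472 genes tested 13674 and 13501 did. Whether these lists differ from the members was not tested.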

How the data were processed

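The deposited scanner files give, per spot and dye, a mean signal and a local background as linear intensities, written by Agilent Feature Extraction 9.1.3.1 per the file headers. The deposited value table holds log2 ratios, animal over pool, which matched the software's processed signals within 5e-10 over 43379 spots and served as an alternative.

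The mean and background intensities were analysed in R 4.3.3 with limma 3.58.1: normexp correction with an offset of 50, loess within each array, outlier spots left out, replicated probes averaged. The offset draws ratios of dim probes towards 0. Probes were kept when well above background on at least 4 of 16 arrays and with at least 2 values in each group, and the brightest kept probe stood for a gene. The 4 group means plus sex were estimated together from all 16 arrays for 26472 genes, with Benjamini-Hochberg adjustment over all of them and a two-sided threshold of 0.05. Within-slide values are differences between the animals of 1 slide, without the sex term. Array number (4 a group) limits the precision: the median SE of a diet difference was 0.09 in Great Basin and 0.10 in Mojave over all genes.

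The rule that gives the members reads gene symbols and no measured value. That rule, the role groups, the lists of other chaperones and the cell type markers were chosen with earlier results of these data known. Full values were given for the 8 largest calls of each diet comparison, and a set of canonical members was described whatever their result. Alternatives were the processed signals, median centring, the Cy5 channel alone, an offset of 10, other filters on dim probes, the mean of probes, no sex term, slide or replicate number as a block, males alone, the dimmest slide left out and each animal left out. The model was tested on simulated data. Probe sequences, promoters and genome positions were not used here.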

Additional observations from a re-analysis of the deposited data

Results flagged for a closer look

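Of 90 groups of 4 animals looked at for 23 members, 6 held an animal far from the other 3. About 1 in 20 groups does so by chance. The 23 were the canonical members together with those that had the largest calls of each diet comparison, so some were chosen by their result. Hspb1 measured -1.57 in Great Basin creosote 4, against -0.40 to -0.30 in the other 3 animals. Hspa1a measured 0.57 in Mojave juniper 4, against -0.82 to -0.62. Hspcb measured 0.13 in Great Basin juniper 3, against 0.02 to 0.03, and -0.65 in Mojave creosote 1, against -0.46 to -0.44. Bag1 measured -0.21 in Great Basin creosote 1, against -0.02 to 0.01, and Cct2 measured 0.10 in Great Basin juniper 2, against -0.12 to -0.10.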

How the results depend on the processing

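The Great Basin diet count of 15 became 5 with the deposited processed signals, 4 with median centring, 5 without the dimmest slide, 1 in males alone and 6 to 15 with 1 animal left out; the Mojave count of 19 became 32 with median centring, 11 from the Cy5 channel alone, 12 without the dimmest slide, 10 in males alone and 13 to 21 with 1 animal left out. Of all genes, 4.04% passed in Great Basin as reported, and 2.68%, 4.37%, 1.51% and 0.578% in the first 4 of these settings. In Mojave 9.57% passed as reported, and 18%, 4.1%, 6.55% and 4.05% in the 4 settings named. With 1 animal left out, 2.38% to 4.7% of all genes passed in Great Basin and 5.99% to 10.4% in Mojave. In the males, and without the slide, fewer animals were compared; for the scalings the cause was not tested. The count of 0 for population on creosote became 13 with median centring, 2 without the sex term (Pfdn5 and Dnajc3) and 0 to 3 with 1 animal left out, and that of 0 for the interaction became 11 with median centring, 1 with the mean of probes (Pfdn5), 1 without the sex term (Pfdn5) and 0 to 1 with 1 animal left out. With 1 animal left out, up to 1.79% of all genes passed for population on creosote and up to 1.26% for the interaction. On juniper the population count was 0 in every setting run. Dnajc9 in Great Basin reversed to -0.62 from the Cy5 channel alone; the cause was not tested. With the replicate block 11 members passed in Great Basin and 16 in Mojave. Animals sharing a number did not deviate together in expression (correlations from -0.17 to 0.14 over 24 pairs). Pairs with different numbers gave -0.25 to 0.17 over 72 pairs. Such correlations cannot show whether the numbers pair animals in the trial. Of 180 values of called Great Basin members under the 12 other settings 114 kept their call, 65 lost it and 1 reversed; of 228 Mojave values 189 kept it and 39 lost it. Kept throughout were Hspcb in Great Basin and Cct4, Dnaja3, Hspa4l, Hspd1 and Pfdn5 in Mojave, also with any 1 animal left out.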
